A study of Mesocricetus auratus with 36 samples.

Results

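The comparison set 6 libraries of late pre-hibernation hamsters against 6 libraries of hamsters kept on a long photoperiod, 12 of the 36 libraries of the series, chosen by their titles (SP late pre-hib and LP2, each numbered 1 to 6). All 36 were laser-captured from the ependymal layer beside the third ventricle in frozen brain sections of male golden hamsters (Mesocricetus auratus), tissue enriched for tanycytes. Each of 6 groups had 6 brains. The long photoperiod hamsters had 14 h of light in 24 h at 22 °C and are labelled 8 months old. The late pre-hibernation hamsters were moved to 10 h of light at 8 °C, spent 8 to 12 weeks there and were taken before they had begun to cycle between torpor and arousal; they are labelled 6 months old. No genotype, strain or drug is named. Day length, ambient temperature and age differed together between the groups and cannot be told apart. The protocol describes long photoperiod animals taken at the start and at the end of the experiment and does not tie the title LP2 to either.

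Tanycytes are radial glia at the base of the third ventricle that reach into the hypothalamus with long processes and touch both cerebrospinal fluid and blood vessels. In seasonal mammals they translate day length into hypothalamic hormone levels: thyrotropin from the neighbouring pars tuberalis acts on their receptor (Tshr) and sets the deiodinases, of which Dio2 makes the active thyroid hormone T3 and Dio3 destroys it. They also handle vitamin A, which enters cells through Stra6, is stored as an ester by Lrat and acts as retinoic acid on nuclear receptors. Golden hamsters hibernate after weeks of short days in the cold, and late pre-hibernation is the last stage before the first torpor.

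Depth was 17.99 to 26.9 M counts (M, 1e+06) per library, with 22.8 ± 1.62 M in late pre-hibernation and 22.7 ± 3.48 M on long photoperiod, and under 1% of the counts of each lay on ribosomal RNA genes. Levels are normalised counts per 1e+06 counts (CPM), given as the median of the 6 libraries of a group with the lowest and the highest in parentheses, or as the mean ± SD. Differences are log2 fold changes of late pre-hibernation over long photoperiod ± SE. Adjusted p values are from edgeR's quasi-likelihood test over 17926 genes, and a gene rose or fell where its adjusted p was under 0.05. Tanycyte markers were present in every library, with Rax, a transcription factor that marks these cells, at 154 CPM (72.2 to 203) in late pre-hibernation and 129.6 CPM (61 to 169) on long photoperiod. Their summed level was 4449.7 ± 732 CPM against 4677 ± 505 CPM over 23 genes (two-sided exact permutation test, p = 0.569, n = 6 each).

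Libraries that stood apart from the rest of their group were late pre-hibernation 4, long photoperiod 5 and long photoperiod 2. In late pre-hibernation 4 the tanycyte markers summed to 3098 CPM, below the 4337 to 5163 CPM of the other 5, while neuron markers reached 1718 CPM (968 to 1232 CPM in the others) and pituitary markers 721 CPM (153 to 211 CPM). Long photoperiod 5 had the lowest tanycyte sum of its group, 3891 CPM, and long photoperiod 2 the highest pituitary sum, 2504 CPM against 221 to 520 CPM in the others. Without late pre-hibernation 4 and long photoperiod 5 together, a choice made after seeing the data, 586 genes passed in place of 642. Genes whose call ends, or whose fold moves by more than 1.5 times, without 1 library are named where they are given.

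Late pre-hibernation differed from long photoperiod in 642 of 17926 genes tested (3.58%), and rises outnumbered falls. Of these, 403 genes rose (2.25% of those tested) and 239 fell (1.33%); 2419 genes had an unadjusted p under 0.05. That balance depended on the fit: limma voom with quality weights called 3071 genes (1579 higher, 1492 lower), the fit without the 3 rRNA-rich libraries of other groups 1747 (918 and 829), and the 12 libraries fitted alone 1338 (768 and 570). In the fit used here the rises were also larger: 206 were at least 2-fold and 66 at least 4-fold, against 87 and 23 of the falls, and the median log2 fold change was 1.02 among the rises and -0.81 among the falls. In 303 of the rises the lowest late pre-hibernation library lay above the highest long photoperiod library (502 of all genes tested, 2.8%), and in 148 of the falls the reverse held (302 of all, 1.68%). Of the 642 genes, 391 passed in each of 12 leave-one-out fits, in which 1 library was dropped, and 116 carry no informative name. Against long photoperiod 1 to 3 alone 270 genes passed, and against long photoperiod 4 to 6 alone 226, with 69 and 57 of the 105 passing genes named by rule below. The median over all genes tested was -0.003 on the log2 scale.

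**Figure D1:**
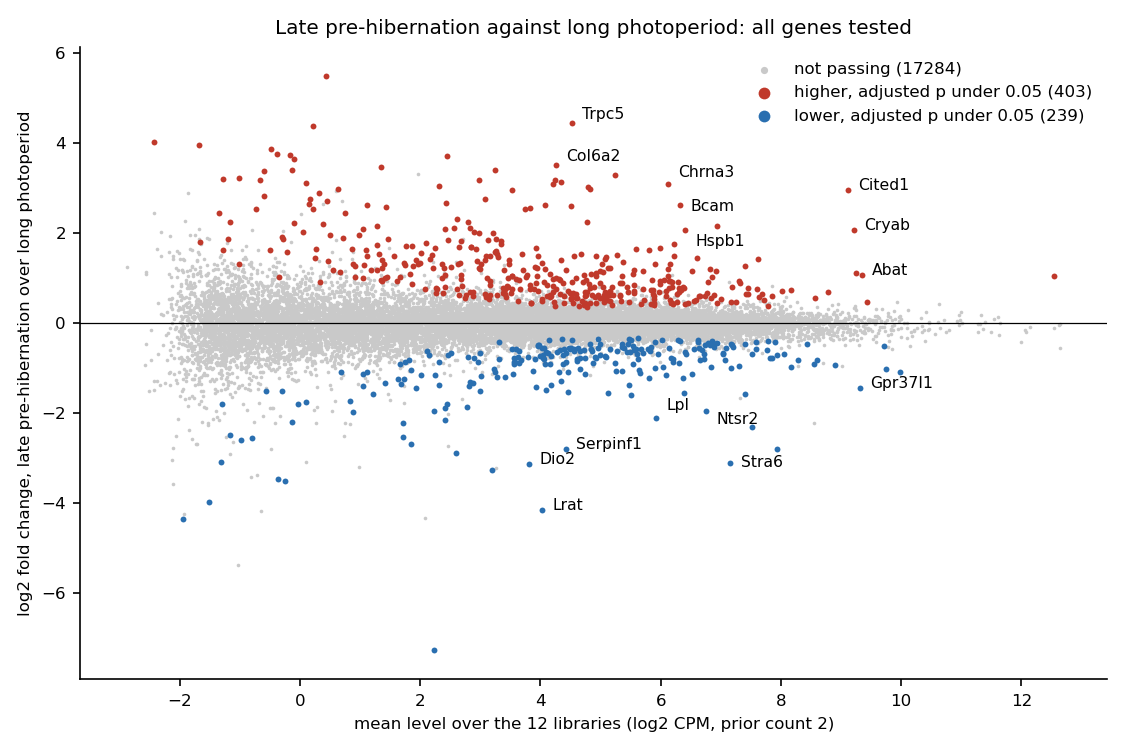
Each point is 1 of the 17926 genes tested: the x axis is its mean level over the 12 libraries in log2 CPM and the y axis its log2 fold change, late pre-hibernation over long photoperiod; red points rose (403), blue points fell (239) and grey points did not pass. Trpc5 (4.43) and Lrat (-4.14) lie farthest from 0 among the labelled genes, and the unlabelled lowest point is LOC101843376 (-7.27).

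Among genes with an informative name and a mean of at least 1 on the log2 CPM scale, from which the largest changes below were taken, Trpc5 rose most. It encodes a calcium-permeable cation channel of the TRP family. It was at 105 CPM (58.5 to 149.9) in late pre-hibernation and at 4.96 CPM (2.66 to 7.59) on long photoperiod. Trpc5 rose by 4.43 ± 0.60 on the log2 scale (adjusted p = 1.41e-05). The late pre-hibernation libraries were all high and the groups lay far apart. The gene spans bases 80666313 to 80942769 of contig NW_024429188.1 of assembly BCM_Maur_2.0, on the minus strand. Of 15 TRP channel genes tested, 2 rose and 1 fell. Trpv2 rose by 1.21 ± 0.32 (adjusted p = 0.0208) from a low level, 1.72 CPM (0.867 to 2.5) on long photoperiod, a call lost in 4 of 12 leave-one-out fits (adjusted p up to 0.0736, without late pre-hibernation 5). An unnamed gene overlaps Trpv2 exons on the other strand with 0.139 times its counts. Trpv4, a channel opened by warmth and osmotic swelling, fell by 0.85 ± 0.19 (adjusted p = 0.00655), from 32.6 CPM (22.3 to 45.3) to 18.6 CPM (13.5 to 23.4), and 5 of the 6 late pre-hibernation libraries lay below all of long photoperiod.

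A pair of nicotinic acetylcholine receptor subunits rose together. Chrna3, the alpha 3 subunit, was at 205 CPM (160.2 to 271) in late pre-hibernation against 24 CPM (11.5 to 38.8) on long photoperiod. Chrna3 rose by 3.09 ± 0.48 on the log2 scale (adjusted p = 7.94e-05). Chrnb4, the beta 4 subunit with which it forms ganglionic receptors, was at 80.1 CPM (59.6 to 104) against 11 CPM (5.86 to 15.2). Chrnb4 rose by 2.96 ± 0.44 on the log2 scale (adjusted p = 4.61e-05). Neither gene had overlapping groups. The genes neighbour each other on the minus strand of contig NW_024429203.1 of BCM_Maur_2.0, Chrna3 at bases 33457002 to 33471160 and Chrnb4 at 33472495 to 33492238, with 1334 bases between them. Chrna5, on the other strand 5166 bases from Chrna3, was near the limit of detection in both groups, at 0.542 CPM (0.204 to 0.741) and 0.301 CPM (0.0943 to 0.631). Chrna5 did not pass (log2 fold change 0.63 ± 0.54, adjusted p = 0.717). Of 9 nicotinic subunits tested, Chrna3 and Chrnb4 were the 2 that passed (22.2%, median log2 fold change 0.35).

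Several secreted factors, receptors and regulators of transcription were among the largest rises. Inhba, the beta A chain of activin A, was at 68.6 CPM (36.7 to 74.1) against 6.64 CPM (4.15 to 10.9). Inhba rose by 3.12 ± 0.41 on the log2 scale (adjusted p = 5.34e-06). Ngfr, the low-affinity neurotrophin receptor p75, was at 49.8 CPM (43.7 to 75.2) against 6.47 CPM (4.72 to 8.07). Ngfr rose by 3.08 ± 0.48 on the log2 scale (adjusted p = 7.96e-05). Cited1, a coactivator that binds CBP and p300, went from 201 ± 32.8 CPM to 1563 ± 224 CPM. The change in Cited1 was 2.96 ± 0.36 on the log2 scale (adjusted p = 1.65e-06). In each of these 3 genes every late pre-hibernation library exceeded every long photoperiod library. Irf5, a transcription factor of the interferon regulatory family, had the smallest p of all rises, at 81 CPM (46.7 to 117) against 9.56 CPM (6.45 to 13.7). The change in Irf5 was 3.02 ± 0.32 on the log2 scale (adjusted p = 2.65e-07). Of 25 interferon and antigen presentation genes, a list that does not hold Irf5, 1 passed (4%, near the 3.58% of all genes). It was the immunoproteasome subunit Psmb8 (0.78 ± 0.20, adjusted p = 0.019, lost in 5 of 12 leave-one-out fits, adjusted p up to 0.0746 without long photoperiod 4). Tbx2, a T-box repressor, rose from 4.47 CPM (2.22 to 6.08) to 35.8 CPM (20.8 to 44.9). The change in Tbx2 was 2.95 ± 0.55 on the log2 scale (adjusted p = 9.14e-04). Its exons overlap those of LOC110342176 on the other strand, which holds 0.874 times its counts and rose too (1.23 ± 0.29, adjusted p = 0.00711), so that reads of the overlap cannot be told apart.

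The other genes among the 15 largest rises were Tcerg1l (3.71 ± 0.81), Col6a2 (3.49 ± 0.58), Dnase2b (3.39 ± 0.59), Tesc (3.27 ± 0.46), Dhrs7c (3.16 ± 0.51), Rtl4 (2.75 ± 0.42) and Grpr (2.65 ± 0.42), with adjusted p from 2.33e-05 (Tesc) to 0.0049 (Tcerg1l), and in none of them did the groups overlap. Tesc, a calcium-binding protein, was at 111 CPM (102 to 149) against 12.6 CPM (8.92 to 15). Dnase2b, a lysosomal nuclease, rose from 2.63 CPM (1.99 to 5.41) to 29.7 CPM (20.2 to 47.1). Dhrs7c, a dehydrogenase known from the sarcoplasmic reticulum of muscle, rose from 2.82 CPM (0.928 to 4.91) to 24.2 CPM (18.9 to 34.3). Grpr, the receptor of gastrin-releasing peptide, rose from 2 CPM (1.73 to 3.24) to 12.6 CPM (9.43 to 21). Nmb, which encodes neuromedin B, a peptide of the same family, rose by 1.77 ± 0.25 (adjusted p = 1.49e-05), from 2.37 ± 0.506 CPM to 8.12 ± 3.68 CPM, and was named after its values were seen.

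Genes of 5 small heat shock proteins rose, and no larger chaperone of the list passed. Cryab, the alpha B crystallin that keeps unfolded proteins soluble, was at 1218 CPM (783 to 1608) in late pre-hibernation against 318 CPM (227 to 341) on long photoperiod. Cryab rose by 2.06 ± 0.24 on the log2 scale (adjusted p = 8.36e-07). Hspb1 was at 171 CPM (152 to 227) against 42.1 CPM (30.9 to 53.2). Hspb1 rose by 2.07 ± 0.30 on the log2 scale (adjusted p = 2.55e-05). Hspb2 was at 115 CPM (81.3 to 143) against 46.6 CPM (41.5 to 48.1). Hspb2 rose by 1.31 ± 0.19 on the log2 scale (adjusted p = 1.90e-05). Hspb6 was at 90.8 CPM (55.7 to 105) against 27.9 CPM (19.7 to 33.8). Hspb6 rose by 1.65 ± 0.20 on the log2 scale (adjusted p = 1.22e-06). Hspb7, a member known from heart muscle and added here after its values were seen, was at 42.4 CPM (33.4 to 46.8) against 6.8 CPM (6.04 to 7.63). Hspb7 rose by 2.62 ± 0.35 on the log2 scale (adjusted p = 7.60e-06). None of these 5 genes had overlapping groups, and each passed in all 12 leave-one-out fits. Hspb8 did not pass, at 114 CPM (103 to 139) against 111 CPM (106 to 135), and neither did Hspb11 (-0.13 ± 0.16, adjusted p = 0.842), whose exons overlap 2 genes on the other strand. The change in Hspb8 was 0.00 ± 0.15 on the log2 scale (adjusted p = 0.997).

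Of the 29 heat shock and chaperone genes tested, 5 rose and none fell (17.2% passing, against 3.58% of all genes), and their median log2 fold change was 0.04. The fifth was Hsf2, a heat shock transcription factor (0.92 ± 0.14, adjusted p = 4.24e-05), and the other 24 did not pass. Cryab and Hspb2 lie head to head on contig NW_024429203.1, Cryab at bases 29418088 to 29421372 on the plus strand and Hspb2 at 29416138 to 29417998 on the minus strand, 89 bases apart.

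Genes of cell adhesion, the cytoskeleton and the matrix gave both directions. Bcam, a laminin receptor, rose from 34.1 CPM (22.6 to 40.002) to 213 CPM (129 to 259). The change in Bcam was 2.62 ± 0.30 on the log2 scale (adjusted p = 8.36e-07). Tgfb1i1, an adaptor of focal adhesions, rose from 7.17 CPM (6.53 to 9.81) to 22.5 CPM (17.3 to 25.5). The change in Tgfb1i1 was 1.54 ± 0.18 on the log2 scale (adjusted p = 8.36e-07). Esam, an adhesion molecule known from endothelium, rose from 9.27 CPM (6.72 to 11.9) to 58.1 CPM (39.9 to 71.6). The change in Esam was 2.58 ± 0.36 on the log2 scale (adjusted p = 1.41e-05). Col6a2, a chain of collagen VI, rose from 5.77 CPM (2.17 to 8.92) to 75.6 CPM (35.1 to 103). The change in Col6a2 was 3.49 ± 0.58 on the log2 scale (adjusted p = 2.12e-04). Its partner chains did not pass: Col6a1 had higher late pre-hibernation libraries without overlap but a low level, 2.86 CPM (1.81 to 6.38) against 1.07 CPM (0.555 to 1.49). The change in Col6a1 was 1.58 ± 0.47 on the log2 scale (adjusted p = 0.0515), and without late pre-hibernation 6 it passed (1.69, adjusted p = 0.0431). Col6a3 had the opposite sign (-1.70 ± 0.56, adjusted p = 0.0943). Lgals1, which encodes galectin 1, and Plau, the urokinase plasminogen activator, rose by 1.15 ± 0.19 (adjusted p = 1.19e-04) and 2.30 ± 0.36 (adjusted p = 6.64e-05), both named after their values were seen. Among 64 matrix and integrin genes tested, 4 rose (Col6a2, Itga3, Ncan and Hapln3) and 2 fell (Col5a3 and Col9a1), with a median of 0.09. The calls of Itga3 and Hapln3 were lost in 10 and 8 of 12 leave-one-out fits (adjusted p up to 0.135 without late pre-hibernation 1 and 0.138 without late pre-hibernation 5).

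Among the rises with the smallest p were also Sez6l (1.34 ± 0.16), Rrad (2.25 ± 0.27), Mmd (1.47 ± 0.19) and Uroc1 (1.66 ± 0.21), each with adjusted p between 8.36e-07 and 3.47e-06. Rrad, a small GTPase that restrains voltage-gated calcium channels, was at 61.7 CPM (50.2 to 67.4) against 12.7 CPM (8.07 to 19). Uroc1, which degrades a product of histidine, was at 8.48 CPM (6.79 to 9.13) against 2.63 CPM (2.03 to 3.22). Abundant genes rose as well: Abat, the enzyme that breaks down GABA, went from 457 CPM (339 to 580.4) to 975 CPM (700.1 to 1129). The change in Abat was 1.07 ± 0.17 on the log2 scale (adjusted p = 5.93e-05). Slc5a3, the transporter of the osmolyte myo-inositol, went from 411 CPM (333 to 543) to 872 CPM (609.5 to 1227). The change in Slc5a3 was 1.11 ± 0.22 on the log2 scale (adjusted p = 0.00125). Exons of Slc5a3 overlap those of Mrps6 on the same strand, which holds 0.698 times as many counts. The gene LOC101829167, which the gene table does not name, was the most abundant gene that rose, from 4112 CPM (3743 to 4614) to 8517 CPM (7255 to 9556). The change in LOC101829167 was 1.05 ± 0.14 on the log2 scale (adjusted p = 3.64e-06). Abat, Slc5a3 and LOC101829167 were chosen after their values were seen.

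**Figure D2:**
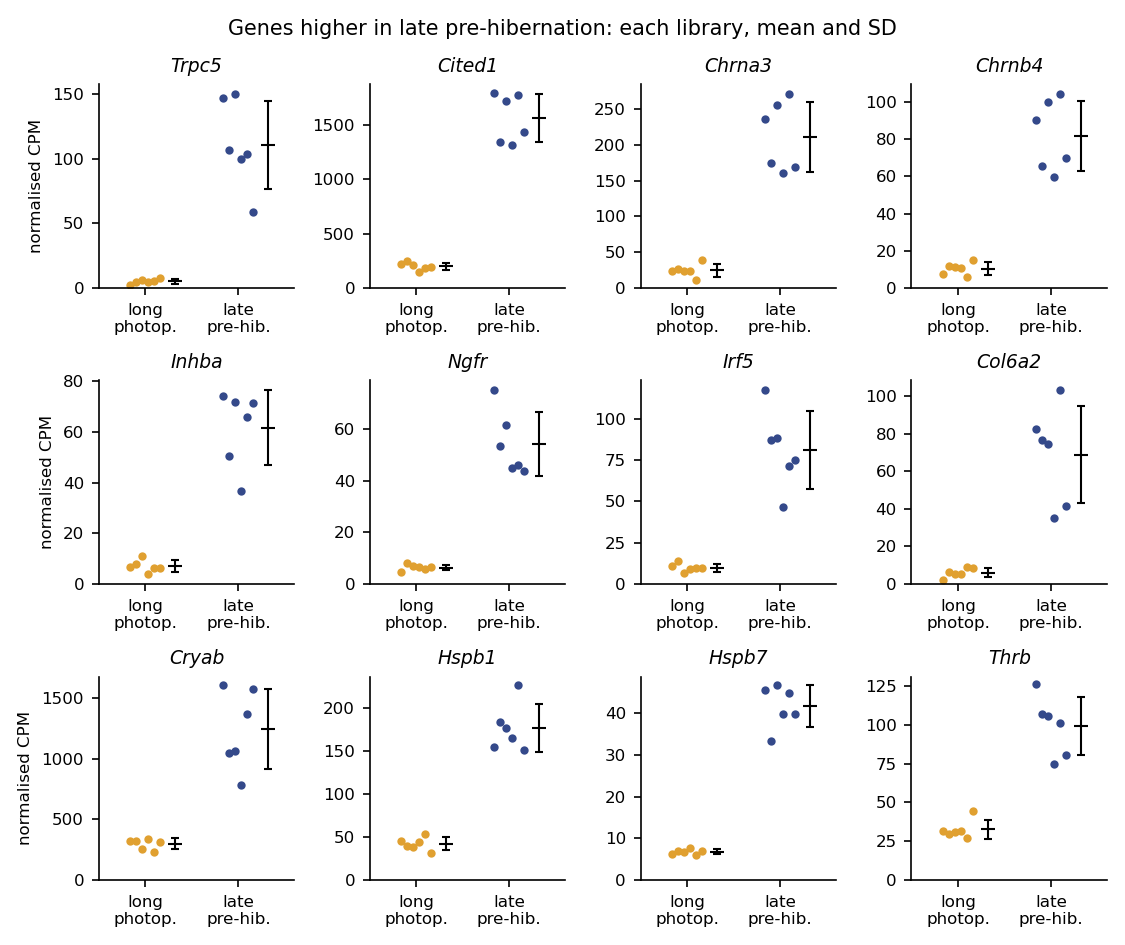
Normalised CPM of 12 genes that rose, 1 point per library, with the mean and SD of each group of 6 beside the points; long photoperiod is on the left of each panel and late pre-hibernation on the right, and each y axis starts at 0. In all 12 panels the late pre-hibernation points lie above the long photoperiod points.

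By the same rule Lrat, a gene of vitamin A handling, fell most. The enzyme, which esterifies retinol for storage, was at 4.58 CPM (2.38 to 5.16) in late pre-hibernation against 81.2 CPM (11.8 to 130.3) on long photoperiod. Lrat fell by 4.14 ± 0.42 on the log2 scale (adjusted p = 2.30e-07). It lies at bases 72351916 to 72363408 of contig NW_024429193.1 of BCM_Maur_2.0, on the plus strand, where Fgg overlaps an exon on the other strand with 0.0406 times its counts. Stra6, the membrane receptor that takes up retinol, was at 58.5 CPM (10.2 to 99.7) against 510.4 CPM (181 to 769). Stra6 fell by 3.10 ± 0.52 on the log2 scale (adjusted p = 2.32e-04). Neither gene had overlapping groups. Long photoperiod 5 was the lowest of its group in both genes, and each passed in all 12 leave-one-out fits.

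Of 16 retinoid genes tested, 7 fell and 1 rose (50%, against 3.58% of all genes), and their median log2 fold change was -0.89. Besides Lrat and Stra6, the falls included those of Rarb, a retinoic acid receptor (-0.86 ± 0.22, adjusted p = 0.016), the cellular retinoic acid carrier Crabp1 (-0.92 ± 0.24, adjusted p = 0.0184), the plasma carrier Rbp4 (-0.92 ± 0.27, adjusted p = 0.0483) and the retinol dehydrogenase Rdh10 (-0.66 ± 0.20, adjusted p = 0.0478). These 4 are less firm: the calls of Rbp4 and Rdh10 were lost in 9 and 10 of 12 leave-one-out fits (adjusted p up to 0.15 and 0.146), that of Crabp1 in 3 (0.0543) and that of Rarb in 2 (0.0587). The gene that rose was Dhrs3, a retinaldehyde reductase, at 102 CPM (80.1 to 121) against 62.5 CPM (50.5 to 83.2). The change in Dhrs3 was 0.69 ± 0.15 on the log2 scale (adjusted p = 0.00357). Aldh1a3, which makes retinoic acid, was at 3.68 CPM (1.75 to 6.59) against 8.11 CPM (4.14 to 14.7). Aldh1a3 did not pass (log2 fold change -1.10 ± 0.34, adjusted p = 0.0684), though it did without late pre-hibernation 5 (-1.33, adjusted p = 0.0326) or without long photoperiod 5 (-1.25, adjusted p = 0.0383). Crabp2 (-0.26 ± 0.16, adjusted p = 0.52) and Rara (0.07 ± 0.11, adjusted p = 0.902) did not pass either. Aldh1a1 was not analysed here. The number of members that passed fell to 4 without late pre-hibernation 3 and to 5 without late pre-hibernation 1.

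In the thyroid hormone pathway 3 genes fell and 1 rose of 20 tested (20%, median -0.04), a count that went up to 7 without late pre-hibernation 4. Dio2 was at 5.15 CPM (3.25 to 7.5) in late pre-hibernation against 47 CPM (11.5 to 68.4) on long photoperiod, with no overlap. Dio2 fell by 3.13 ± 0.42 on the log2 scale (adjusted p = 7.43e-06). Dio3 stood the other way, at 19.2 CPM (12 to 30.3) against 5.11 CPM (3.58 to 10.4), again with no overlap, but did not pass. The change in Dio3 was 1.84 ± 0.65 on the log2 scale (adjusted p = 0.134). Slco1c1, which carries thyroxine across the blood-brain barrier, fell from 332 CPM (129 to 467) to 103 CPM (64 to 128). The change in Slco1c1 was -1.59 ± 0.38 on the log2 scale (adjusted p = 0.0105). Hr, a nuclear corepressor induced by thyroid hormone in rodent brain, went from 36.1 CPM (28 to 41.7) to 21.3 CPM (12.7 to 28.8). The change in Hr was -0.77 ± 0.17 on the log2 scale (adjusted p = 0.00478). Thrb, the beta receptor for T3, was the gene that rose, from 31.3 CPM (27 to 44.6) to 104 CPM (74.8 to 126). The change in Thrb was 1.61 ± 0.25 on the log2 scale (adjusted p = 4.71e-05).

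Upstream of the deiodinases, the thyrotropin receptor Tshr was at 117 CPM (64.7 to 142) in late pre-hibernation and 72 CPM (52.3 to 92.7) on long photoperiod and did not pass. The change in Tshr was 0.61 ± 0.19 on the log2 scale (adjusted p = 0.0684). Without late pre-hibernation 4 Tshr passed (0.72, adjusted p = 0.018). The alpha receptor Thra did not pass (0.36 ± 0.12, adjusted p = 0.117), but did without late pre-hibernation 2 (0.43, adjusted p = 0.0336). Crym, a cytosolic T3-binding protein and tanycyte marker, was at 326 CPM (87.8 to 519) against 574 CPM (442 to 845). Crym did not pass (log2 fold change -0.90 ± 0.32, adjusted p = 0.134). Ttr, the thyroxine and retinol-binding protein carrier transthyretin, was at 21.7 CPM (0.94 to 34.9) against 1.95 CPM (0.108 to 4.24). Ttr did not pass (log2 fold change 3.29 ± 1.02, adjusted p = 0.0684). Late pre-hibernation 4, at 0.94 CPM, was the library inside the long photoperiod range, and without it Ttr passed (3.54, adjusted p = 0.0372).

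Among the other large falls, Serpinf1, the secreted pigment epithelium-derived factor, went from 66.6 CPM (17.7 to 104) to 7.02 CPM (4.1 to 15.9). The change in Serpinf1 was -2.80 ± 0.42 on the log2 scale (adjusted p = 4.39e-05). Lpl, the lipoprotein lipase that frees fatty acids from circulating fat, went from 122 CPM (99.8 to 186) to 27.6 CPM (19.2 to 49.5). The change in Lpl was -2.11 ± 0.29 on the log2 scale (adjusted p = 1.37e-05). Notum, which removes the lipid of Wnt ligands, fell from 9.28 CPM (5.05 to 16.6) to 1.29 CPM (0.55 to 2.98). The change in Notum was -2.68 ± 0.43 on the log2 scale (adjusted p = 8.07e-05). Ptges, a prostaglandin E synthase, went from 7.35 CPM (4.41 to 14.7) to 1.64 CPM (0.171 to 2.24). The change in Ptges was -2.52 ± 0.47 on the log2 scale (adjusted p = 6.80e-04). Groups did not overlap in any of the 4. Slc22a3, an organic cation transporter that takes up monoamines, went from 6.49 CPM (4.55 to 10.6) to 1.51 CPM (1.2 to 1.83). The change in Slc22a3 was -2.21 ± 0.44 on the log2 scale (adjusted p = 0.00148). Sik1, a salt-inducible kinase, went from 9.25 CPM (5.41 to 32.8) to 2.55 CPM (1.87 to 3.67). The change in Sik1 was -2.17 ± 0.37 on the log2 scale (adjusted p = 2.18e-04). Thbs4 belongs to the 15 largest falls through 1 library: long photoperiod 5 held 169.4 CPM and the other 5 held 3.75 to 7.29 CPM, and without it the log2 fold change was -0.33 (adjusted p = 0.966) in place of -2.90 ± 0.82 (adjusted p = 0.0404).

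Genes known from astrocytes and other glia were among the falls. Ntsr2, a neurotensin receptor of astrocytes, went from 229 CPM (122 to 277) to 52.9 CPM (43.1 to 82.8). The change in Ntsr2 was -1.96 ± 0.25 on the log2 scale (adjusted p = 3.45e-06). Gpr37l1, an orphan receptor of glia, went from 1078 CPM (811 to 1258) to 362 CPM (262 to 562). The change in Gpr37l1 was -1.46 ± 0.22 on the log2 scale (adjusted p = 4.01e-05). Kcnj10, the glial inward rectifier potassium channel, went from 32.9 CPM (23.6 to 35.7) to 16 CPM (11.6 to 16.8). The change in Kcnj10 was -1.08 ± 0.16 on the log2 scale (adjusted p = 4.37e-05). None of the 3 had overlapping groups. Ntsr2 and Gpr37l1 were the 2 of 13 astrocyte markers that passed. Aqp4, the glial water channel, was at 454 CPM (408 to 972) against 746 CPM (653 to 898). Aqp4 did not pass (log2 fold change -0.50 ± 0.21, adjusted p = 0.243). Slc1a2, a glutamate transporter, was at 82 CPM (43.7 to 154) against 135 CPM (120.0 to 173). Slc1a2 did not pass (log2 fold change -0.63 ± 0.22, adjusted p = 0.13). The summed astrocyte markers were 4517 ± 888 CPM in late pre-hibernation and 6013 ± 537 CPM on long photoperiod (two-sided exact permutation test, p = 0.013, adjusted over 15 such measures 0.0812, n = 6 each). Without late pre-hibernation 4, 7 of the 13 passed. In bulk tissue, fewer cells of a type and less RNA per cell cannot be told apart.

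Kcnj13, the Kir7.1 channel and the 1 of 9 choroid plexus markers that passed, was among the 15 largest falls, but its exons overlap Gigyf2 on the other strand, which holds 6.77 times its counts and did not pass (-0.10 ± 0.17, adjusted p = 0.916). The change in Kcnj13 was -1.88 ± 0.33 on the log2 scale (adjusted p = 3.03e-04). The same limit applies to Fam102a, whose overlapping neighbour LOC121136459 holds 2.07 times its counts (0.20 ± 0.18, adjusted p = 0.733). Fam102a fell by 1.95 ± 0.27 on the log2 scale (adjusted p = 1.49e-05). Further falls with small p were those of Adcy2, an adenylyl cyclase (-1.56 ± 0.22, adjusted p = 1.91e-05), Lmcd1 (-1.61 ± 0.23, adjusted p = 2.34e-05) and Fam207a (-1.13 ± 0.17, adjusted p = 4.24e-05). Irs2, an adaptor of the insulin receptor, fell from 23.4 CPM (18.7 to 38.1) to 9.55 CPM (6.76 to 12). The change in Irs2 was -1.42 ± 0.18 on the log2 scale (adjusted p = 3.64e-06). It was the 1 of 20 insulin and IGF genes that passed (5%, against 3.58% of all genes). A second, Igfbp3, did so without late pre-hibernation 4. Irs1, a related adaptor, was at 13.4 CPM (9.87 to 18.7) against 14.6 CPM (12.9 to 17). Irs1 did not pass (log2 fold change -0.09 ± 0.16, adjusted p = 0.911). Irs4, an adaptor outside that list named after its values were seen, rose from 57.1 CPM (47.4 to 72) to 245 CPM (229 to 319.9). The change in Irs4 was 2.15 ± 0.44 on the log2 scale (adjusted p = 0.00251). Among abundant genes, Dbi, the acyl-CoA-binding protein from which endozepine peptides are cut, fell from 1507 CPM (1113 to 1745) to 684 CPM (583 to 839). The change in Dbi was -1.08 ± 0.18 on the log2 scale (adjusted p = 2.24e-04). Mt2a, a metallothionein, went from 419 CPM (348 to 474) to 239.8 CPM (192 to 276). The change in Mt2a was -0.83 ± 0.14 on the log2 scale (adjusted p = 1.68e-04). Erbb3, a neuregulin receptor, went from 158 CPM (150.2 to 179) to 79.9 CPM (70.3 to 95.9). The change in Erbb3 was -0.98 ± 0.15 on the log2 scale (adjusted p = 4.24e-05). These 3 were also named after their values were seen.

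**Figure D3:**
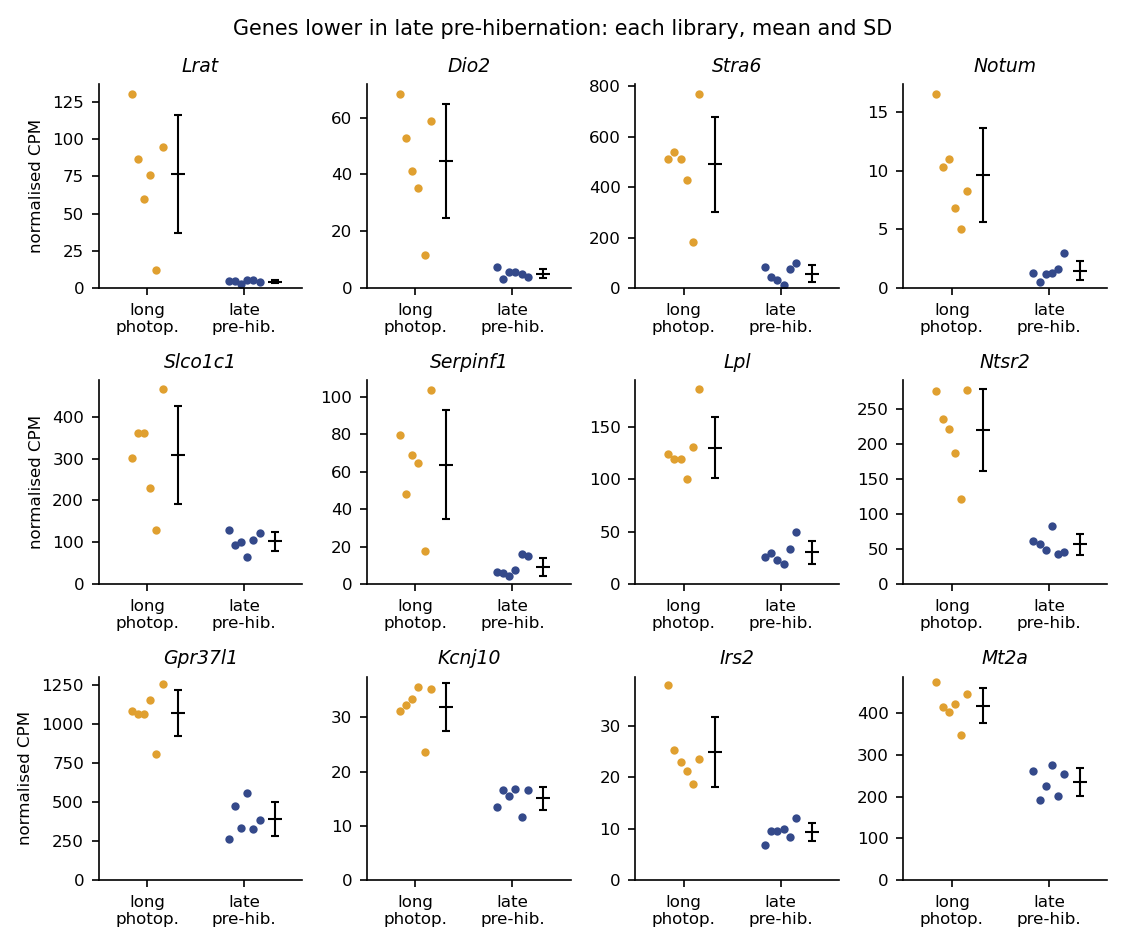
Normalised CPM of 12 genes that fell, 1 point per library, with the mean and SD of each group of 6 beside the points and each y axis starting at 0. Long photoperiod 5 is the low point of its group in every panel but that of Lpl, and in none of the 12 panels do the groups overlap.

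Within energy metabolism, genes of fatty acid oxidation and of lipid uptake passed at a higher share than all genes (3.58%). Of 34 genes of fatty acid oxidation and the carnitine shuttle, 3 rose and 2 fell (14.7%, median -0.02; 3 passed without late pre-hibernation 3 or without long photoperiod 1). Cpt1b, the carnitine palmitoyltransferase best known from muscle, rose from 5.57 CPM (3.33 to 7.89) to 20.4 CPM (10.1 to 27.5). The change in Cpt1b was 1.81 ± 0.31 on the log2 scale (adjusted p = 2.03e-04). Crat, a carnitine acetyltransferase, rose by 0.51 ± 0.12 (adjusted p = 0.00648). Cpt1a, the liver form of the first enzyme, was at 62.7 CPM (45.5 to 72.2) against 66.2 CPM (46.4 to 82.4). Cpt1a did not pass (log2 fold change -0.07 ± 0.14, adjusted p = 0.931). Cpt1c (0.55 ± 0.15, adjusted p = 0.0262) rose in a call lost in 7 of 12 leave-one-out fits (adjusted p up to 0.108). The nuclear receptor Ppard (-0.34 ± 0.08, adjusted p = 0.00995) and the fatty acid carrier Fabp7 (-1.10 ± 0.29, adjusted p = 0.0196, lost in 3 fits) fell. Pygm, the muscle form of glycogen phosphorylase, rose from 37.7 CPM (15.7 to 55.8) to 111 CPM (85.7 to 155). It was the 1 of 24 glycogen genes that passed (4.17%, near the share of all genes). The change in Pygm was 1.66 ± 0.32 on the log2 scale (adjusted p = 0.00101). Of 30 genes of lipid uptake and storage 3 fell (10%), Lpl, Fabp7 and the acyl-CoA synthetase Acsl6 (-0.98 ± 0.21, adjusted p = 0.0035), and 5 passed without late pre-hibernation 4. None of 27 genes of glucose and lactate transport and glycolysis passed by edgeR's test (5 at an unadjusted p under 0.05; Gapdh by DESeq2), but without late pre-hibernation 4 the lactate transporter Slc16a3 passed (0.43, adjusted p = 0.0449). Slc2a1, the glucose transporter GLUT1, was at 351 CPM (312 to 383) against 461 CPM (398 to 505), without overlap. Slc2a1 did not pass (log2 fold change -0.38 ± 0.15, adjusted p = 0.181). The lactate transporter Slc16a1 and the kinase Pdk4 gave -0.19 ± 0.15 (adjusted p = 0.686) and 0.01 ± 0.22 (adjusted p = 0.996).

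In the cAMP list 4 genes fell (Sik1, Adcy2, Pde7b and Pde4b) and 1 rose (Creb3l1) of 27 tested (18.5%, median -0.10). The phosphodiesterase Pde7b fell by 1.06 ± 0.20 (adjusted p = 6.92e-04), and the call of Pde4b (-1.09 ± 0.31, adjusted p = 0.0408) was lost in 9 of 12 leave-one-out fits (adjusted p up to 0.119). Of 24 clock genes, Npas2, the relative of CLOCK, rose (0.60 ± 0.14, adjusted p = 0.00896). Ciart, a repressor of CLOCK and BMAL1, fell from 68 CPM (45.3 to 129) to 29.1 CPM (15.8 to 45.1). The change in Ciart was -1.37 ± 0.30 on the log2 scale (adjusted p = 0.00404). Nr1d1, which encodes REV-ERB alpha, and Per2 had lower late pre-hibernation libraries without overlap but neither passed, at -0.65 ± 0.20 (adjusted p = 0.0574) and -0.55 ± 0.22 (adjusted p = 0.203). Without late pre-hibernation 1 Nr1d1 passed (-0.77, adjusted p = 0.0261). Arntl, which encodes BMAL1, gave 0.69 ± 0.24 (adjusted p = 0.125). The labels give no clock time of sampling. Of 20 glucocorticoid and stress genes 4 rose and none fell (20%, median 0.29): the mineralocorticoid receptor Nr3c2 (0.69 ± 0.15, adjusted p = 0.00449), the growth brake Ddit4 (0.67 ± 0.15, adjusted p = 0.00563), Gadd45b (1.72 ± 0.34, adjusted p = 0.00132) and Zbtb16 (1.03 ± 0.28, adjusted p = 0.0281, lost in 7 of 12 fits, adjusted p up to 0.138 without late pre-hibernation 1). Of 26 immediate early genes 1 passed (3.85%, near the 3.58% of all genes). It was Fosl2 (0.79 ± 0.21, adjusted p = 0.0225, lost in 3 fits).

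The Notch and Wnt pathways act in radial glia during development. In the list of Notch and neural stem cell genes and the Wnt list, 10 of the 11 genes that passed fell. Over all genes 239 of the 642 that passed fell, and several of the 11 calls were lost in leave-one-out fits, as given below. Of 24 genes of the Notch pathway and of neural stem cells, 6 fell and 1 rose (29.2%, median -0.13). The ligand Dll1 fell from 3.89 CPM (1.89 to 4.5) to 0.783 CPM (0.504 to 1.88). The change in Dll1 was -1.97 ± 0.43 on the log2 scale (adjusted p = 0.00369). The target Hey2 fell from 38.4 CPM (29.3 to 51.9) to 25.3 CPM (22.7 to 29.4). The change in Hey2 was -0.55 ± 0.13 on the log2 scale (adjusted p = 0.00836). The ligand Jag1, the target Hey1, the modifier Lfng and Fabp7 fell with calls that 3 to 10 leave-one-out fits ended. The receptor Notch3 rose (0.80 ± 0.22, adjusted p = 0.0306, lost in 8 fits). Of these 7, Dll1 and Hey2 passed in all 12 leave-one-out fits. In the list, 2 members passed without long photoperiod 1, 3 without late pre-hibernation 3, late pre-hibernation 5 or long photoperiod 4, and 4 without late pre-hibernation 6 or long photoperiod 3. In the Wnt pathway 4 of 37 genes fell and none rose (10.8%, median -0.14): Notum and the receptors Fzd9 (-1.17 ± 0.24, adjusted p = 0.00179), Fzd2 (-0.80 ± 0.19, adjusted p = 0.00929) and Fzd6 (-0.54 ± 0.14, adjusted p = 0.0216, lost in 4 fits). Among 38 activin and TGF beta genes, Inhba and Grem1 rose and Tgfb3 fell (-1.15 ± 0.24, adjusted p = 0.00298), a count of 3 that became 5 without late pre-hibernation 4. Grem1 was at 0.159 CPM (0 to 0.377) on long photoperiod and lost its call in 10 fits (adjusted p up to 0.134 without late pre-hibernation 5). Of 27 FGF and neurotrophin genes, Ngfr and the BDNF receptor Ntrk2 (0.45 ± 0.13, adjusted p = 0.0422, lost in 10 fits) rose and Spry2, an inhibitor of FGF signalling, fell (-0.52 ± 0.12, adjusted p = 0.00754). Plxnb1, a semaphorin receptor, rose from 205 CPM (187 to 231) to 347 CPM (260.0 to 408). It was 1 of 3 of 39 axon guidance and adhesion genes that passed (7.69%), with Sema6d up and Nrp2 down. The call of Sema6d was lost in 6 of 12 leave-one-out fits (adjusted p up to 0.1003). The change in Plxnb1 was 0.70 ± 0.13 on the log2 scale (adjusted p = 6.58e-04).

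Receptors for transmitters, hormones and peptides changed singly. Gabra2 and Gabra4, alpha subunits of the GABA-A receptor, rose by 1.67 ± 0.35 (adjusted p = 0.00298) and 1.68 ± 0.45 (adjusted p = 0.0239), the latter lost in 6 fits. They were 2 of 33 glutamate and GABA receptor genes (6.06%, against 3.58% of all genes). The histamine receptor Hrh3 rose from 4.19 CPM (2.08 to 5.26) to 13.5 CPM (7.49 to 17.4). The change in Hrh3 was 1.68 ± 0.38 on the log2 scale (adjusted p = 0.0061). The adrenergic receptor Adra1a rose from 1.46 CPM (0.217 to 2.39) to 5.09 CPM (2.82 to 5.97). The change in Adra1a was 1.73 ± 0.38 on the log2 scale (adjusted p = 0.00468). These are 2 of 37 nutrient and hormone receptors, of which Gpr37l1 and Ntsr2 fell. Gper1, a membrane receptor for estrogen named after its values were seen, fell from 11.5 CPM (6.85 to 16.1) to 4.69 CPM (3.5 to 6.19). The change in Gper1 was -1.34 ± 0.29 on the log2 scale (adjusted p = 0.00392). Of 18 neuropeptide and transmitter genes, Th rose (0.88 ± 0.23, adjusted p = 0.0239, lost in 5 fits) and Kiss1 (-1.25 ± 0.34, adjusted p = 0.0286, lost in 6 fits) and Penk (-0.86 ± 0.25, adjusted p = 0.0454, lost in 9 fits) fell. None of the 3 stayed called without long photoperiod 1 or without long photoperiod 3. Of 17 prostaglandin genes, Ptger1 rose and Ptges and Pla2g5 fell (17.6%). The call of Ptger1 was lost in 7 of 12 leave-one-out fits (adjusted p up to 0.1055) and that of Pla2g5 in 2 (0.984). In the list, 1 member passed without late pre-hibernation 3 or without long photoperiod 5. Long photoperiod 5 held 32.1 CPM of Pla2g5 against 0.163 to 1.15 CPM in the other 5. The complement protease C1r rose (1.25 ± 0.29, adjusted p = 0.00836). Of 14 MAP kinase phosphatases 1 passed (7.14%), Dusp8, which rose (0.91 ± 0.25, adjusted p = 0.0314, lost in 6 fits). Of 24 amino acid carriers 1 passed (4.17%, near the 3.58% of all genes). It was Slc38a3, which fell (-0.57 ± 0.14, adjusted p = 0.0154, lost in 1 fit, without late pre-hibernation 1). Without late pre-hibernation 4 Slc1a2 passed too.

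Of 23 tanycyte markers Penk was the 1 that passed (4.35%, near the 3.58% of all genes; median 0.13), with a call lost in 9 of 12 leave-one-out fits; without late pre-hibernation 4, 3 of the markers passed. The intermediate filament genes Vim and Nes gave -0.11 ± 0.13 (adjusted p = 0.83) and -0.09 ± 0.26 (adjusted p = 0.957), Rax 0.27 ± 0.29 (adjusted p = 0.815), Lhx2 0.14 ± 0.18 (adjusted p = 0.84) and Gpr50, an orphan receptor, 0.88 ± 0.48 (adjusted p = 0.445). None of 43 genes of ependymal motile cilia passed by edgeR's test (2 did by DESeq2, and 9 had an unadjusted p under 0.05), and 42 of the 43 had a negative log2 fold change (median -0.25, against 9063 negative of 17926 genes). Their summed level was 9684 ± 1437 CPM against 11445 ± 1657 CPM (two-sided exact permutation test, p = 0.0866, n = 6 each). Of the 43 genes 2 passed without late pre-hibernation 2 and 1 without long photoperiod 2. Foxj1, the master regulator of motile cilia, was at 35.8 CPM (20.7 to 53.3) against 39.9 CPM (25.4 to 43.1). By edgeR's test and by DESeq2, no member passed of 69 cytosolic ribosomal protein genes, 42 nuclear oxidative phosphorylation genes, 11 mitochondrially encoded genes, 21 cell cycle genes, 28 tight and gap junction genes, 27 sterol and fatty acid synthesis genes, 8 melanogenesis genes, 15 microglia markers and 6 cold-linked RNA-binding genes, with list medians between -0.28 and 0.07. At an unadjusted p under 0.05 there were 7 of the synthesis genes, 3 of melanogenesis and 1 each of the cell cycle, junction and cold-linked lists. Rbm3, a cold-inducible RNA-binding protein in that last list, was at 252 CPM (227 to 296) in late pre-hibernation and 211 CPM (199 to 232) on long photoperiod. Rbm3 did not pass (log2 fold change 0.29 ± 0.18, adjusted p = 0.555). Spp1, which encodes osteopontin, was at 2.16 CPM (1.14 to 6.16) against 1.65 CPM (0.867 to 2.11) and gave 0.85 ± 1.32 (adjusted p = 0.894).

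**Figure D4:**
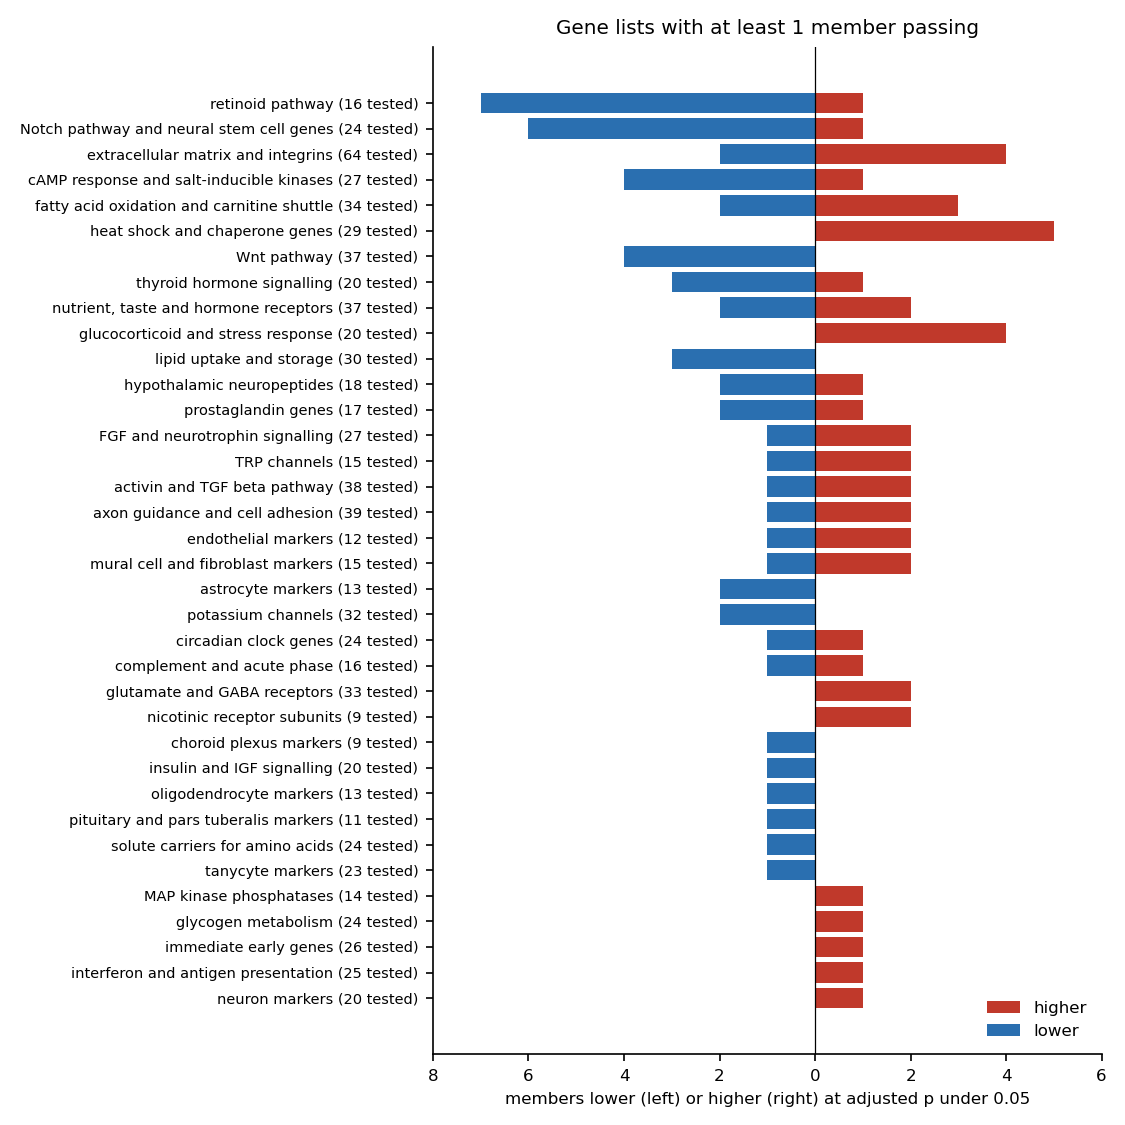
Bars count the members of each gene list that fell (left, blue) or rose (right, red) at an adjusted p under 0.05, for the 36 of 48 lists with at least 1 such member; the number tested stands beside each name. The retinoid list has 7 falls and 1 rise of 16 tested, and the heat shock list 5 rises of 29.

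Markers of cells outside the ependymal strip moved with the groups in part. Pituitary hormone genes were mostly lower in late pre-hibernation, 10 of 11 with a negative sign (median -1.50), and Lhb, the beta chain of luteinizing hormone, passed, from 30.6 CPM (10.5 to 50.1) to 10.8 CPM (6.48 to 16.2) (-1.50 ± 0.38, adjusted p = 0.0153, lost in 2 fits). Cga, the shared alpha chain, was at 0.261 CPM (0.084 to 8.54) against 33.5 CPM (5.7 to 97.2). Cga did not pass (log2 fold change -4.33 ± 1.40, adjusted p = 0.0888). Without late pre-hibernation 4 it passed (-5.95, adjusted p = 0.0326). Gh1, growth hormone, was at 1.94 CPM (0.078 to 48) against 71.3 CPM (13.6 to 282). Gh1 did not pass (log2 fold change -3.23 ± 1.37, adjusted p = 0.254). It too passed without late pre-hibernation 4 (-5.50, adjusted p = 0.0416). Outside that list, the gene LOC101843376, which the RefSeq gene table lists with the synonym prolactin and which was picked after its values were seen, was at 0.496 CPM (0 to 1.54) against 49.2 CPM (15.6 to 262). LOC101843376 fell by 7.27 ± 1.14 on the log2 scale (adjusted p = 1.07e-04). Without long photoperiod 2 the change was -6.57. Summed pituitary markers were 266 ± 224 CPM against 739.9 ± 875 CPM (two-sided exact permutation test, p = 0.154, n = 6 each), and whether their share in the cut tissue bears on any gene above was not tested.

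Endothelial markers split, Esam and Kdr (0.80 ± 0.22, adjusted p = 0.0359, lost in 9 fits) rising and Slco1c1 falling of 12. The sum of the 12 was 261 ± 20.4 CPM against 397 ± 108 CPM (two-sided exact permutation test, p = 0.0195, adjusted over 15 measures 0.0812, n = 6 each). Slco1c1 carried that difference, with 103 ± 23.1 against 308 ± 118 CPM. The other 11 summed the other way, to 159 ± 14.6 CPM (141 to 178) against 88.9 ± 11.3 CPM (76.9 to 110.1), without overlap, a split chosen after values were seen. Esam and Kdr are among the 11 and made up that difference, with Kdr at 45.8 to 73.9 against 26.8 to 38.5 CPM. The log2 fold changes of the 12 were 6 positive and 6 negative (median 0.04), and 9 of the 12 did not pass. Mural and fibroblast markers had 2 rises (Notch3 and Tagln) and 1 fall (Lum) of 15, and summed to 128 ± 12.6 against 109 ± 10.6 CPM (exact permutation p = 0.0216, adjusted 0.0812). Notch3 and Tagln made up that difference (43.0 ± 12.1 against 23.5 ± 2.72 CPM), and the other 13 summed to 85.3 ± 9.91 against 85.4 ± 12.6 CPM. The calls of Notch3, Tagln and Lum were lost in 8, 7 and 3 of 12 leave-one-out fits. None of the 3 passed without late pre-hibernation 6, and 1 did without late pre-hibernation 1 or 5 or without long photoperiod 1, 3, 4 or 5. Tagln rested on late pre-hibernation 6, with 12.4 CPM in it and a log2 fold change of 1.14 (adjusted p = 0.414) without it. Erythrocyte markers, 3 genes, summed to 5.09 ± 3.23 CPM against 16.3 ± 3.39 CPM with no overlap (two-sided exact permutation test, p = 0.00216, the smallest this design allows, adjusted 0.0325, n = 6 each). Most of it was Alas2, of heme synthesis, at 2.57 CPM (0.756 to 8.37) against 12.3 CPM (8.44 to 17). Alas2 did not pass (log2 fold change -2.02 ± 0.75, adjusted p = 0.159). Without late pre-hibernation 4 the group mean of Alas2 was 2.04 CPM in place of 3.09 CPM, and Slc4a1, whose counts in the group all lay in that library, passed. Neuron markers summed to 1162 ± 291 against 975 ± 58.9 CPM (p = 0.11 by the same exact permutation test), and Eno2 rose (0.53 ± 0.14, adjusted p = 0.0184, lost in 3 fits). Oligodendrocyte markers summed to 327 ± 76.4 against 407 ± 49.6 CPM (exact permutation p = 0.0541), and Sox10 fell (-1.40 ± 0.37, adjusted p = 0.0197, lost in 4 fits). Of the 13 oligodendrocyte genes 7 had a positive and 6 a negative log2 fold change (median 0.08), so the list gave no common direction. The mean log2 CPM of the neuron markers and that of the oligodendrocyte markers, not the sums above, were also used as covariates. With them 783 genes passed, among them 624 of the 642 in the same direction, and 104 of the 105 passing genes named by rule kept their call. The part of endothelial, mural and erythrocyte cells in the gene results was not tested.

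The remaining 4 groups of the season place the late pre-hibernation levels; contrasts with long photoperiod share its 6 libraries and are given side by side. Pre-hibernation hamsters had 4 weeks of short days in the cold and are labelled 4 months old. Those between torpor bouts (interbout euthermia) and those in torpor are labelled 6 months old. Refractory hamsters, in which hibernation had ended on its own at about 20 weeks, are labelled 8 months old, as on long photoperiod. All were at 8 °C with 10 h of light. A single library each of pre-hibernation, interbout euthermia and refractory held over 5% of its counts on ribosomal RNA genes, below called rRNA-rich. The shares were 9.28% in pre-hibernation 5, 7.21% in interbout euthermia 6 and 41.8% in refractory 4, which had 5.16 M counts. The group means and ranges below include these libraries. The mean of Lrat was 4.5 CPM in refractory, 17.2 in torpid, 15.9 in interbout and 6.53 in pre-hibernation hamsters, beside 4.33 in late pre-hibernation, all below its long photoperiod mean of 76.5 CPM. Dio2 was at 3.05 to 7.47 CPM in refractory, 3.02 to 11.6 in torpid, 4.23 to 30.8 in interbout and 3.24 to 7.41 in pre-hibernation libraries, beside 3.25 to 7.5 in late pre-hibernation. Dio3 had its highest mean in pre-hibernation, 46.1 CPM (11.5 to 88.6), above the 20.4 CPM of late pre-hibernation, and was back at 1.7 to 8.84 CPM in refractory libraries.

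Several of the named rising genes stood high already in pre-hibernation and low again in refractory animals. The mean of Cryab was 1323 CPM in pre-hibernation, 1108 in torpid, 935 in interbout and 367 in refractory libraries, where its range of 272 to 572 CPM overlapped that of long photoperiod. Chrna3 went from 189 CPM in pre-hibernation to 34.9 in refractory libraries, and Inhba from 68.8 CPM through 31.8 in interbout euthermia and 14.7 in torpor to 12.9 in refractory libraries. Trpc5 had a higher mean in late pre-hibernation (111 CPM) than in pre-hibernation (49.5 CPM), but the difference did not pass (log2 fold change 1.16, adjusted p = 0.9997). It was at 11.1 to 49.1 CPM in refractory libraries, above the 7.59 CPM of the highest long photoperiod library. Torpor libraries spread widely in these genes, with Chrna3 at 47.3 to 429 CPM and Trpc5 at 11.1 to 165 CPM.

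Refractory against pre-hibernation libraries, none of which belong to the comparison, gave a further reading of the same genes, a look that was chosen after values were seen. Those groups differ in labelled age too, 8 against 4 months, and in weeks of short days, 20 against 4. Age runs the same way in the comparison, with long photoperiod at 8 and late pre-hibernation at 6 months. Age and season cannot be told apart in either contrast. The contrasts also came from 1 fit of all 36 libraries, which share 1 estimate of the spread, so they are not independent. Of the 403 genes that rose, 356 (88.3%) were lower in refractory than in pre-hibernation animals, against 47.6% of all genes tested. Of the 403, 137 passed as lower in that contrast and 1 as higher, where 5.35% of all genes passed, 2.61% as lower and 2.74% as higher. Of the 239 genes that fell, 174 (72.8%) were higher in refractory than in pre-hibernation animals, against 52.4% of all genes, and 17 passed as higher and 2 as lower. Without the 3 rRNA-rich libraries 368 of the rises were lower and 186 of the falls higher. There 128 of the rises passed as lower and 1 as higher, and 25 of the falls as higher and 3 as lower, where 4.02% of all genes passed, 2.62% as lower and 1.4% as higher. By gene, Cryab fell from pre-hibernation to refractory animals by 1.85 (adjusted p = 1.44e-05), Pygm by 2.19 (adjusted p = 2.45e-04) and Inhba by 2.40 (adjusted p = 7.14e-04), all on the log2 scale. Lrat (-0.46, adjusted p = 0.526) and Dio2 (-0.13, adjusted p = 0.89) did not pass between those groups.

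**Figure D5:**
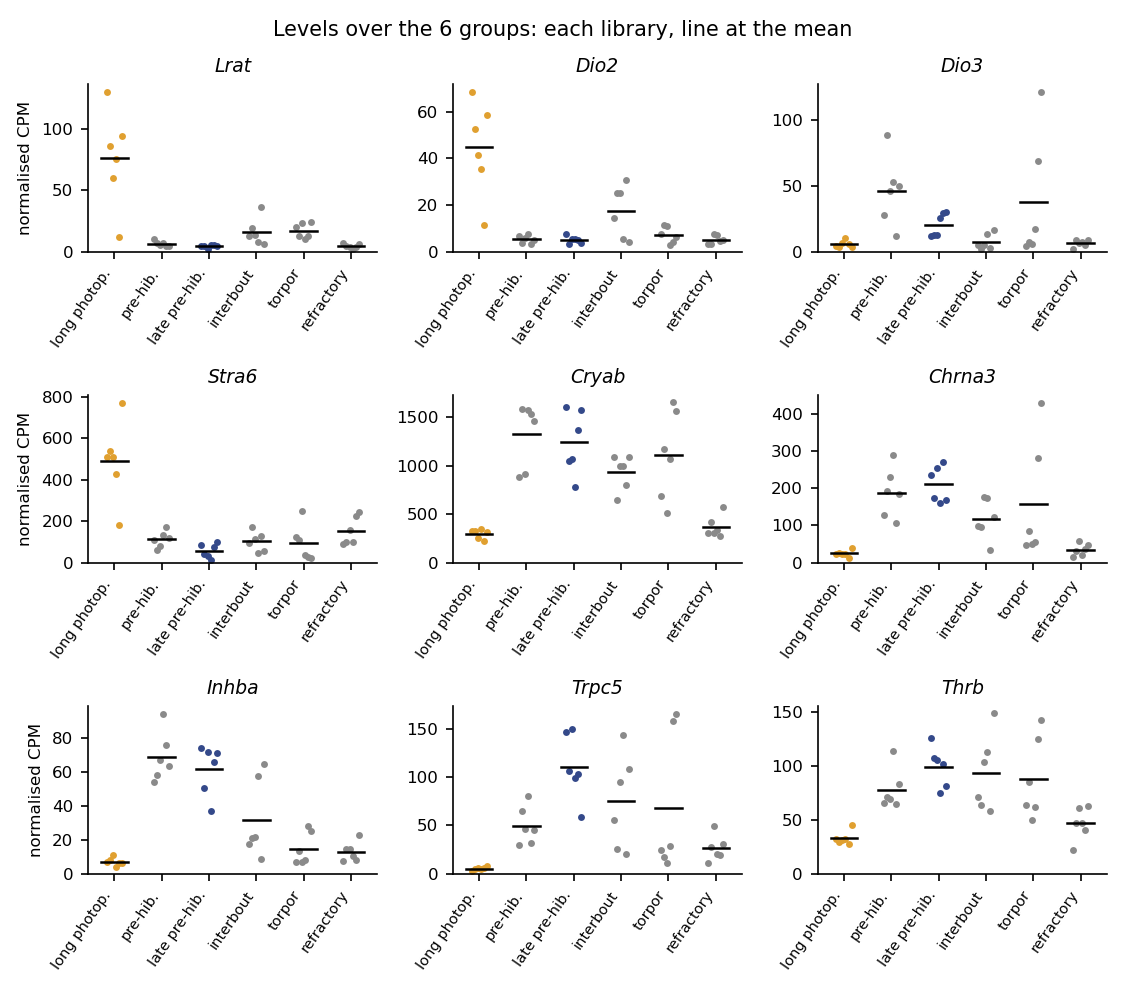
Normalised CPM of 9 genes in each of the 36 libraries, by group in the order of the experiment, with a line at each group's mean; long photoperiod is orange, late pre-hibernation dark blue and the other groups grey. Lrat, Dio2 and Stra6 are high on long photoperiod, Cryab, Chrna3 and Inhba are high in pre-hibernation and late pre-hibernation and lower again in refractory libraries, and Dio3 is highest by mean in pre-hibernation.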

How the data were processed

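RNA-seq counts per gene were deposited by the authors, 1 table per library, made with featureCounts 2.0.1 per the file headers, without use of strand, so reads of a gene and of an overlapping gene on the other strand cannot be told apart. The genome was BCM_Maur 2.0, per the submitters' processing notes. The values are raw counts and not normalised; no step of the authors beyond counting is used here.

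Genes with enough counts by edgeR's filterByExpr were kept, 17926 of 32340, scaled by TMM and tested with edgeR 4.0.16's quasi-likelihood test (limma 3.58.1, R 4.3.3) over all 36 libraries, which share 1 estimate of the spread, with Benjamini-Hochberg adjustment over all genes tested. Python 3.11.15 with pandas 2.3.3 and matplotlib 3.10.9 made the tables and figures, and DESeq2 1.42.0 was an alternative. The single summed values were compared by two-sided exact permutation tests over libraries.

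The members and lists were chosen with earlier results of these data known. Genes were named by rule: of passing genes with an informative name and a mean log2 CPM of at least 1, the 15 largest rises and falls, the 10 with the smallest p each way, and up to 4 passing members of each of 48 lists each way, plus 33 fixed genes, of which 32 were tested. The rule named 120 genes, of which 105 passed. Others are given as chosen after their values were seen or as members of a list.

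The labels do not say that equal replicate numbers share an animal or a day. Deviations from the group means were correlated between same-numbered libraries of the groups compared. These correlations ran from -0.286 to 0.103, so the libraries were treated as unpaired. No 2 libraries were identical. The 6 libraries of a group came from separate brains. The test was checked on simulated counts with known changes. Promoter motifs were not searched, and a few members of the lists are not reported here by name.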

Additional observations from a re-analysis of the deposited data

Results flagged for a closer look

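For the named genes, each group of 6 libraries was tested for a library far from the other 5, by Dixon's ratio of a gap to the group's range. In 336 groups 28 values stood out. Chance flags about 1 group in 20 among unselected groups. Some of these genes were named after their values were seen and all share 12 libraries, so that rate is no test of the count. Of the 28 values, 7 came from late pre-hibernation 4, 5 from long photoperiod 5 and 4 from long photoperiod 6.

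Late pre-hibernation 4 was the highest of its group for the aquaporin gene Aqp4 at 972.3 CPM, for Hspb8 at 139.4 CPM, for Th at 62.9 CPM, for Crabp1 at 13.1 CPM, for Alas2 at 8.37 CPM and for the pituitary hormone genes Gh1 at 48.0 CPM and Cga at 8.54 CPM. Long photoperiod 5 was the highest for Thbs4 at 169.4 CPM, Pla2g5 at 32.1 CPM and Dnase2b at 5.41 CPM, and the lowest for Dll1 at 1.89 CPM and Gigyf2 at 40.9 CPM. Long photoperiod 6 was the highest for Ntrk2 at 710.1 CPM, Lpl at 185.6 CPM, Ddit4 at 102.2 CPM and Thrb at 44.6 CPM. Long photoperiod 2 was the highest for Gh1 at 282.4 CPM and Grpr at 3.24 CPM and the lowest for Jag1 at 14.0 CPM, and long photoperiod 1 the highest for Irs2 at 38.1 CPM and Sik1 at 32.8 CPM.

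Among the other late pre-hibernation libraries, number 5 was the highest for Ddit4 at 187.5 CPM, number 6 for Fam207a at 79.0 CPM and Tagln at 12.4 CPM, and number 1 for Gigyf2 at 47.9 CPM and Dusp8 at 31.4 CPM. Number 2 was the lowest for Thra at 32.3 CPM and number 3 for Lrat at 2.38 CPM. The source of these values was not tested.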

How the results depend on the processing

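The number of genes that passed, 642 (403 higher, 239 lower), stayed within 1.5 times of itself under several settings. These were RLE size factors (647), DESeq2 (876, of which 515 higher), a stricter filter (1 CPM in 6 libraries, 650) and the loosest filter (1 count in all, 474). The same held with ribosomal and mitochondrial genes removed (635) and with mean log2 levels of neuron and oligodendrocyte markers as covariates (783). DESeq2 gave 361 lower genes. The number that passed was 3071 (1579 higher, 1492 lower) by limma voom with quality weights, 1338 (768 and 570) with the 12 libraries fitted alone and 1747 (918 and 829) without the 3 rRNA-rich libraries of other groups. It was 270 (146 and 124) with long photoperiod 1 to 3 alone and 226 (126 and 100) with 4 to 6 alone, which have fewer samples. The share of higher genes among those that passed was 62.8%, and 51.4% by voom and 52.5% without the rRNA-rich libraries; the cause was not tested. Leaving out 1 library at a time gave 464 to 735 genes, 283 to 433 higher and 172 to 302 lower. With the replicate number as a block, 602 genes passed (385 higher, 217 lower) and 101 of the 105 named genes kept their call; the numbers do not pair the libraries. Without late pre-hibernation 4 and long photoperiod 5, 586 genes passed, 510 of them shared, and 91 named genes kept their call. Pla2g5 reversed with long photoperiod 1 to 3 alone, from -3.51 to 0.25; that fit lacks long photoperiod 5. Depth was similar in both groups. Wide errors were not confined to genes of a few CPM, and those of Gh1 and Cga were among the widest given here.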
